A study of Mus musculus with 15 samples.

Results

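The genes described here are 10 genes of the inflammasome and the IL-1 family: the cytokines Il18, Il1a, Il1b and Il33, the receptor antagonist Il1rn, the inflammatory caspases Casp1 and Casp4, and the sensors Nlrp3, Naip1 and Nlrc4. All 10 are listed in each of the 3 deposited count tables, among 15175 genes in the table of the MC experiment and 49585 genes in those of the HC and KMC experiments. They were chosen because Il18 and Naip1 were higher in the libraries labelled HC while other inflammatory genes were lower, so the values of the HC experiment chose the genes and are given below as a description, without p-values, and support nothing.

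RNA-Seq was performed on the pancreas of C57BL/6 mice in 15 libraries, each made from RNA pooled from 3 mice. HPK1, encoded by Map4k1, is a kinase of blood and immune cells that the study also found in normal pancreatic ducts. MC mice (HPK1-M46 transgenic, 3 libraries) carry a kinase-dead form of HPK1, and HC mice (HPK1/B, 3 libraries) carry HPK1 itself. In both, the tamoxifen-inducible Bac-cre, driven by the elastase I promoter of acinar cells, switches on a transgene that expresses GFP until it recombines. The controls of MC (B control, 3 libraries) and MC mice were 2 months old, and HC mice and their 2 libraries of wild-type controls were 4 months old. The study treated HC, MC and control mice with cerulein, a secretagogue peptide that inflames the pancreas in excess. KC (Ras/B, 2 libraries, 15 months) mice carry Bac-cre, and KMC (M46/Ras/B, 2 libraries, 9 months) mice carry the kinase-dead HPK1 as well. The labels call the KC and KMC tissue pancreas and the study's text calls it tumour. Because KMC and KC mice also differed in age and, by the sex-linked genes below, in sex, these and the transgene cannot be told apart in that comparison.

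Cytokines of the IL-1 family are alarm signals of barrier and immune cells. IL-1β and IL-18 are made as inactive precursors, and caspase-1 cleaves them inside inflammasomes, complexes that assemble when a sensor such as NLRP3, or NLRC4 together with a NAIP protein, detects damage or bacterial proteins. The same caspases cleave gasdermin D, which forms pores in the membrane. IL-18 is made by epithelial cells as well as macrophages, whereas IL-1β comes mainly from activated myeloid cells. All values here are mRNA levels, so they hold no information on cleavage or release.

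The RefSeq sequences upstream of the start sites are shown for Il18 and Naip1, the genes that led to the choice, and for the neighbouring caspase genes Casp1 and Casp4, so that genes that differed between the experiments can be set side by side. Each runs 5′ to 3′ over the 250 bases before the start site on the strand of the gene in GRCm38.p6. They lie at chr9:50554450-50554699 on the plus strand (Il18), chr13:100452865-100453114 on the minus strand (Naip1), chr9:5298267-5298516 on the plus strand (Casp1) and chr9:5308599-5308848 on the plus strand (Casp4). Capitals mark matches to the NF-kB motif.
Il18: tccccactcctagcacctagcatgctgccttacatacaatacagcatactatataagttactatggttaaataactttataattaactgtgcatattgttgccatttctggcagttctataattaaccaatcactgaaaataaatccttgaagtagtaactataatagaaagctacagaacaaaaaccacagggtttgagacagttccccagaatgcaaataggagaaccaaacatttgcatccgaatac
Naip1: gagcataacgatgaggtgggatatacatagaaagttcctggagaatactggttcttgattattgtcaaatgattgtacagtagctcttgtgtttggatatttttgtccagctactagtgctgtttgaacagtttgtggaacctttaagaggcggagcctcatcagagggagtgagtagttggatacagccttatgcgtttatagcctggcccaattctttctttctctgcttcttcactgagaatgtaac
Casp1: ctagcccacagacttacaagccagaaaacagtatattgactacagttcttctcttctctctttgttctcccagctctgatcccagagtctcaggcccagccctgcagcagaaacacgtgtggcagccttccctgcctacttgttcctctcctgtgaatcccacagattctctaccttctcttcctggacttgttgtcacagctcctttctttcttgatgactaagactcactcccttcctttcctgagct
Casp4: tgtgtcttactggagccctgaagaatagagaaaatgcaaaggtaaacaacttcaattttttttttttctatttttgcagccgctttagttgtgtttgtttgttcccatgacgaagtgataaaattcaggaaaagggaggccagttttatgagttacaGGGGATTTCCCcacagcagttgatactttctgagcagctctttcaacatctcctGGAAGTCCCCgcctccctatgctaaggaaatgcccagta

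The motifs searched on both strands were NF-kB, by name, and TGANTCA (AP-1), TTCNNNGAA (STAT) and GAGGAAGT (ETS). Casp4 held 3 NF-kB matches, at 93 to 84, 92 to 83 and 39 to 30 bases before the start, of which the first 2 overlap and the last is on the opposite strand. NF-kB matches were present in 7.25% of 32851 windows of this length. TGANTCA, present in 6.75% of windows, matched 12 to 6 bases before the start of Il1a and 141 to 135 bases before the first start of Il1rn. The second start of Nlrp3 had an NF-kB match at 186 to 177 bases. No motif of the 4 matched in the windows of Il18, Naip1 or Casp1 shown above, nor in those of Il1b, Il33 and Nlrc4. All 10 genes had a RefSeq window, 15 windows in all.

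In the annotation used here (GENCODE M21, GRCm38), Il18 lies on chromosome 9 from 50554827 to 50581840. Casp1 (5298517 to 5307265) and Casp4 (5308828 to 5336783) lie on the same chromosome and strand, with 1562 bases between them. Il1a (129299610 to 129309972) and Il1b (129364570 to 129371139) are neighbours on chromosome 2, 54597 bases apart. Naip1 lies on chromosome 13 from 100407764 to 100452869 in a cluster with Naip2, Naip5 and Naip6. Of the 100-base windows of the Naip1 exons, 13% were identical to a window of another gene, mostly Naip3, whereas the other 9 genes had 0%. A read within such a window cannot be assigned to Naip1 alone, and whether this raised or lowered the Naip1 counts was not tested. Exons of Il1a overlap those of Gm14023 and exons of Il1b overlap those of Il1bos, on the opposite strand, and the strand setting of the counting is not given in the sources used here.

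The libraries held 29766575 to 38745907 counts, and CPM here are counts brought to a common library size by TMM within a table. A gene with a count of 0 may have had up to 3 counts, or 0.0357 to 0.204 CPM. A list of 24 acinar genes took 35.5 to 44.6% of counts in MC and 40.8 to 54.4% in controls, 24 to 47.4% in KMC and 58.7 to 67.3% in KC, and 5.34 to 8.28% over all libraries of the HC experiment. Markers of stomach epithelium summed to 9390 to 9520 CPM in the libraries labelled HC and 2650 to 4290 CPM in their controls. The same list summed to 1370 to 4860 CPM in KC, mostly Tff2 (1340 to 4840 CPM), and to 311 to 744 CPM in KMC. In MC it summed to 315 to 568 CPM against 311 to 794 CPM in controls. Whether these markers came from stomach tissue or from the pancreas was not tested. Map4k1, the gene of the transgene, was at 6.79 to 8.32 CPM in MC against 2.34 to 4.14 in controls and at 5.92 and 11.4 CPM in KMC against 0.545 and 1.55 in KC. The libraries labelled HC had 5.05 to 7.93 CPM of it against 11.5 and 15.4 in controls, so its level does not show the transgene of the label. Ptprc, which encodes the leukocyte antigen CD45, differed in the same direction as Map4k1 in each comparison. Log2 fold changes of Map4k1 and Ptprc were -0.99 and -0.95 in HC, 1.13 and 1.66 in MC, and 2.99 and 2.78 in KMC. Whether transgene reads were counted under Map4k1 was not tested. The third HC library was of male tissue by Xist (0.761 CPM) and Ddx3y (48.4 CPM) and the other libraries of that table female, while both KC libraries were male (Ddx3y 10.7 and 17.3 CPM) and both KMC libraries female (0 counts). Xist and Ddx3y are not listed in the MC table.

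In control mice the 10 genes stood higher in the HC experiment than in the others. Naip1 was at 31.2 and 33.7 CPM in the controls of HC, against 0 to 0.208 CPM in those of MC and 0 and 0.348 CPM in KC. Il18 was at 12.7 and 11.8 CPM in the controls of HC against 0.494 to 1.04 and 0.477 to 0.851 CPM. Casp1 differed less, at 10.3 and 7.04 CPM against 1.08 to 2.86 and 0.545 to 0.929 CPM. Since tables, ages and library preparations differ, levels between tables were not tested. Per length of exons, the highest level in the controls of HC was that of Il33, at 26.6 and 19.2 CPM per kb, followed by Il1rn (15.5 and 10.6) and Il18 (12.3 and 11.5), whose ranges overlap. Nlrp3 was the lowest of the 10, at 2.16 and 1.27 CPM per kb, next to Nlrc4 at 2.6 and 2.41. The order was different in the libraries labelled HC, with Il18 highest at 24.4 to 42.4 CPM per kb and Naip1 (15.9 to 21.4) in the range of Il33 (17.6 to 21.1).

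**Figure D1:**
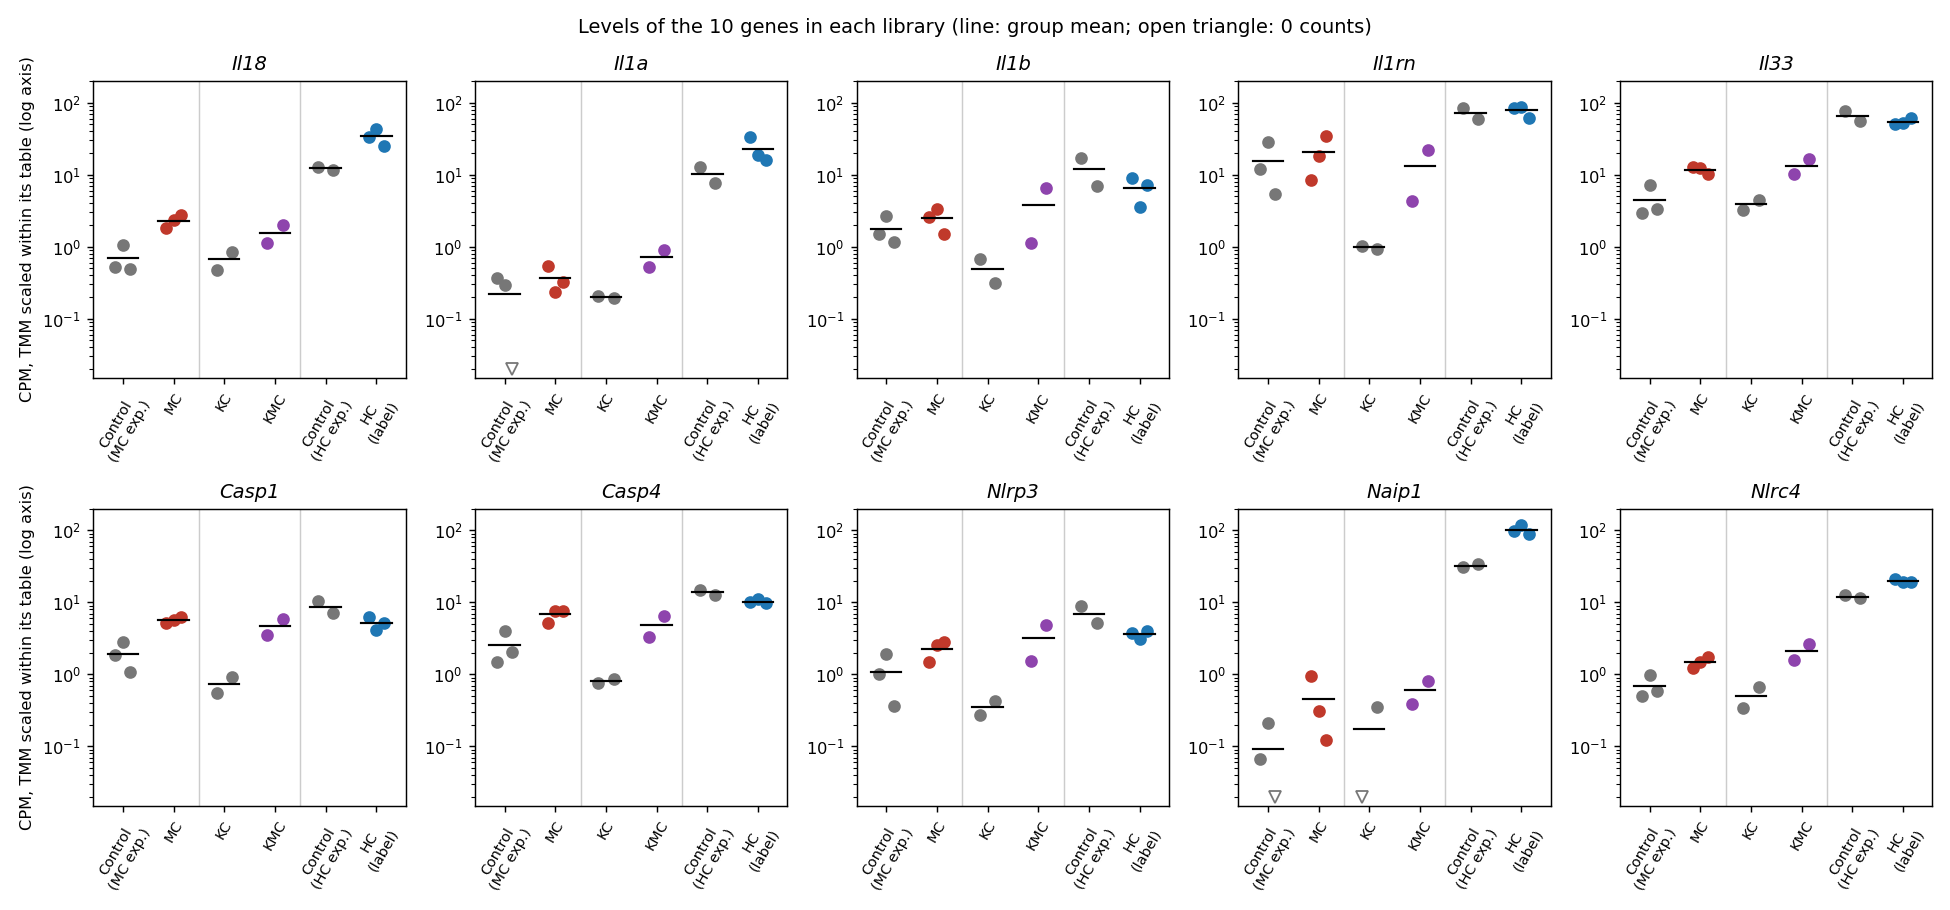
CPM (log axis) of each of the 10 genes in each library, scaled by TMM within its table, for the controls of MC, MC, KC, KMC, the controls of HC and the libraries labelled HC. Points are libraries, lines are group means and open triangles are libraries with 0 counts. Naip1 sits at 31.2 CPM or above in the HC experiment and at 0.947 CPM or below elsewhere.

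To see whether the genes differed with kinase-dead HPK1, MC was compared with its controls and KMC with KC by the quasi-likelihood test of edgeR, and p-values were adjusted over all genes by Benjamini-Hochberg. Calls needed an adjusted p of 0.05 or less together with a log2 fold change of 1 or more in either direction. In MC against control, 9 of the 10 genes had enough counts for the test, each had a log2 fold change above 0 (46.9% of all genes), and 0 were called, as were 0% of the 13902 genes tested. At an unadjusted p under 0.05, 5 of the 9 genes were higher, against 9.2% of all genes tested. DESeq2 called 4 (Il18, Il33, Casp1 and Casp4), against 3.11% of all genes called higher. The median log2 fold change was 1.09 for the 9 genes and -0.02 for all genes. In 5 genes (Il18, Il33, Casp1, Casp4 and Nlrc4), each MC library was above each control, which held for 10.9% of all genes.

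In KMC against KC all 10 genes were tested, each was higher in both KMC libraries than in both KC libraries, with log2 fold changes above 0 as in 51.3% of all genes, and 0 were called, against 0.0191% of 15733 genes. Non-overlap in this direction held for 34.4% of all genes, since there are only 2 libraries a group. At an unadjusted p under 0.05, 8 were higher, against 16.1% of all genes, and DESeq2 called 6 (Il1b, Il1rn, Il33, Casp1, Casp4 and Nlrp3), against 9.25%. The median log2 fold change was 2.33, and 0.03 for all genes. This comparison depends on the scaling. With library size alone the median of all genes was 1.47 and 10 of the 10 genes were called (4714 of all 15733), and with library size without acinar genes the median of all genes was 0.672 and 7 were called (2056 of all). Without KMC library 1, 6 of the 10 were called, among 2312 of 16957 genes.

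In the libraries labelled HC against their controls, 5 of the 10 genes were higher and 5 lower, where 49.8% of all genes were higher, with a median log2 fold change of -0.08 and 0 for all genes. Naip1 alone passed the call rule, which 0.565% of 18407 genes passed, and the HC libraries lay above both controls for Il18, Il1a, Naip1 and Nlrc4 and below both for Casp1, Casp4 and Nlrp3. Among all genes, 17.5% were higher without overlap and 16.1% lower. Because this contrast was used for the choice of genes, nothing is read from these counts or from the calls. Naip1 did not pass the rule without HC library 2 (log2 fold change 1.52), without HC library 3 (1.72), and without either control (1.59 and 1.7).

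**Figure D2:**
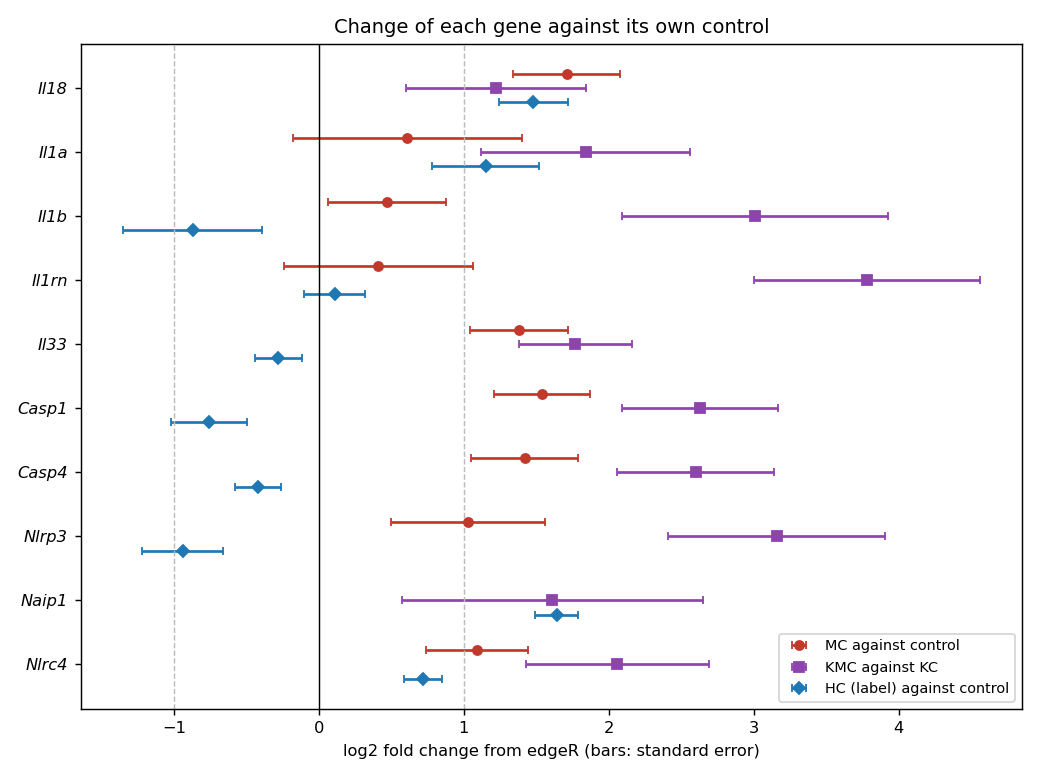
Log2 fold change from edgeR of each gene against its own control in the 3 comparisons, with bars of 1 standard error and dashed lines at the call threshold of 1 in each direction. MC and KMC points lie to the right of 0, while the HC points of Il1b, Il33, Casp1, Casp4 and Nlrp3 lie to the left. Naip1 has no MC value because its counts were too low for the test.

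Of the cytokines, Il18 encodes IL-18, which drives IFN-γ production by T and NK cells. It was at 33.8, 43.7 and 25.1 CPM in the libraries labelled HC and at 12.7 and 11.8 CPM in their controls, 2.79-fold by the fit (log2 fold change 1.48, standard error 0.24), and the groups did not overlap. In MC it was at 1.79, 2.33 and 2.77 CPM, and in controls at 0.529, 1.04 and 0.494 CPM. Each MC library was above each control, with 1.71 as the log2 fold change and a standard error of 0.37 (adjusted p = 0.115 by edgeR and 0.00256 by DESeq2). In KMC it was at 1.13 and 2.01 CPM against 0.477 and 0.851 CPM in KC (log2 fold change 1.22, standard error 0.62, adjusted p = 0.255 by edgeR). Both KMC libraries were above both KC libraries, where the level rests on 7 and 22 counts.

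Il1a encodes IL-1α, a cytokine of epithelial cells that is active without cleavage, and Il1b encodes IL-1β. Il1a was at 32.9, 18.9 and 15.9 CPM in the libraries labelled HC against 12.7 and 7.73 CPM in controls, with log2 fold change 1.15 (standard error 0.37). Il1b went the other way, at 8.86, 3.56 and 7.23 CPM against 16.9 and 7.07 CPM, with log2 fold change -0.87 (standard error 0.48) and groups that overlapped. The ratio of Il1a to Il1b counts was 2.19 to 5.32 in the libraries labelled HC and 0.75 and 1.09 in their controls.

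In MC neither gene stood apart from its controls. Il1a was at 0.541, 0.235 and 0.321 CPM against 0.364, 0.298 and 0 CPM, where the count of 0 allows up to 0.135 CPM. Il1b was at 2.6, 3.36 and 1.48 CPM against 1.49, 2.65 and 1.17 CPM, and the difference (log2 fold change 0.47, standard error 0.41, adjusted p = 0.575 by edgeR) is within the spread of the libraries. In KMC the difference of Il1b came mostly from the second library, with 1.13 and 6.5 CPM against 0.681 and 0.31 CPM in KC (log2 fold change 3.01, standard error 0.92, adjusted p = 0.124 by edgeR and 0.00822 by DESeq2). Il1a was at 0.516 and 0.905 CPM in KMC against 0.204 and 0.194 CPM, with 3 and 5 counts in KC.

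Il1rn encodes the secreted antagonist that blocks the IL-1 receptor. It was at 83.9, 88.4 and 62.1 CPM in the libraries labelled HC and at 85.7 and 58.8 CPM in their controls, which overlapped, with log2 fold change 0.11 (standard error 0.21). In MC it varied more within the groups than between them, at 8.49, 17.9 and 34.7 CPM against 12.1, 28.4 and 5.35 CPM (log2 fold change 0.41, standard error 0.65, adjusted p = 0.765 by edgeR), and the log2 fold change was -0.21 without MC library 3. In KMC it was at 4.37 and 22.3 CPM against 1.02 and 0.929 CPM. This difference (log2 fold change 3.78, standard error 0.78, adjusted p = 0.0796 by edgeR and 1.15e-05 by DESeq2) was the highest of the 10 genes in KMC.

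Il33 encodes IL-33, an alarm cytokine stored in the nuclei of stromal and epithelial cells. It was at 12.8, 12.2 and 10.3 CPM in MC against 2.91, 7.23 and 3.32 CPM in controls (log2 fold change 1.38, standard error 0.34, adjusted p = 0.156 by edgeR and 0.00499 by DESeq2), without overlap. In KMC it was at 10.3 and 16.3 CPM against 3.27 and 4.49 CPM (1.77, standard error 0.39, adjusted p = 0.0821 by edgeR and 0.00547 by DESeq2). In the HC experiment it was higher than in the others and did not stand apart, at 50.7, 51.5 and 60.9 CPM against 76.6 and 55.4 CPM (log2 fold change -0.28, standard error 0.16).

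Of the caspases, Casp1 encodes caspase-1, which cleaves IL-1β and IL-18, and Casp4 encodes the mouse caspase-11, which binds bacterial lipopolysaccharide in the cytosol. In MC, Casp1 was at 5.14, 5.71 and 6.3 CPM against 1.88, 2.86 and 1.08 CPM (log2 fold change 1.54, standard error 0.33, adjusted p = 0.114 by edgeR and 0.000762 by DESeq2). Casp4 was at 5.17, 7.57 and 7.68 CPM against 1.49, 4.02 and 2.07 CPM (1.42, standard error 0.37, adjusted p = 0.173 by edgeR and 0.011 by DESeq2). For both, the second control library was the highest control, below each MC library. Without that control, edgeR called 4 of the 10 genes, Il18, Il33, Casp1 and Casp4, among 718 of 14129 genes tested.

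In KMC, Casp1 was at 3.51 and 5.84 CPM against 0.545 and 0.929 CPM (log2 fold change 2.63, standard error 0.54, adjusted p = 0.0796 by edgeR and 0.00113 by DESeq2). Casp4 was at 3.29 and 6.46 CPM against 0.749 and 0.851 CPM (2.6, standard error 0.54, adjusted p = 0.0796 by edgeR and 0.00125 by DESeq2). The neighbouring genes thus had nearly equal fold changes, and the ratio of Casp1 to Casp4 counts was 0.904 and 1.07 in KMC and 0.727 and 1.09 in KC. In the libraries labelled HC both were below both controls, with 6.17, 4.07 and 5.17 CPM against 10.3 and 7.04 CPM for Casp1 (log2 fold change -0.76, standard error 0.26). For Casp4 the values were 10.1, 11 and 9.7 CPM against 15 and 12.5 CPM (log2 fold change -0.42, standard error 0.16).

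Of the sensors, Naip1 encodes the NAIP protein that binds the needle protein of bacterial secretion systems, and Nlrc4 the partner that NAIP proteins activate. Naip1 was at 98, 119 and 87.9 CPM in the libraries labelled HC against 31.2 and 33.7 CPM in controls, 3.12-fold by the fit (log2 fold change 1.64, standard error 0.15). Nlrc4 was at 21.4, 19.1 and 19 CPM against 12.5 and 11.6 CPM (log2 fold change 0.72, standard error 0.13). Neither overlapped its controls. The other NAIP genes were also higher in each library labelled HC than in both controls, by less: Naip2 had a log2 fold change of 0.36, Naip5 of 0.48 and Naip6 of 0.38. The ratio of Naip1 to Naip2 counts was 1.34 to 1.78 in the libraries labelled HC and 0.599 and 0.699 in controls.

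In the other experiments Naip1 was close to the limit of detection. In MC it had 28, 13 and 5 counts against 2, 7 and 0 counts in controls, so it was not tested there and its groups overlapped. In KMC it had 16 and 69 counts against 0 and 9 counts in KC (log2 fold change 1.61, standard error 1.04, adjusted p = 0.351 by edgeR). Nlrc4 was at 1.22, 1.48 and 1.73 CPM in MC against 0.496, 0.982 and 0.584 CPM (log2 fold change 1.09, standard error 0.35, adjusted p = 0.252 by edgeR), without overlap. In KMC it was at 1.6 and 2.68 CPM against 0.34 and 0.658 CPM (2.06, standard error 0.63, adjusted p = 0.123 by edgeR).

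Nlrp3 encodes the sensor of ion loss and membrane damage that is induced in activated macrophages. It was at 3.81, 3.08 and 4 CPM in the libraries labelled HC against 8.78 and 5.15 CPM in controls, the lowest log2 fold change of the 10 genes there (-0.94, standard error 0.28). In MC it was at 1.49, 2.54 and 2.81 CPM against 1.02, 1.91 and 0.359 CPM, and the groups overlapped (log2 fold change 1.03, standard error 0.53, adjusted p = 0.395 by edgeR). In KMC it was at 1.52 and 4.88 CPM against 0.272 and 0.426 CPM (3.16, standard error 0.75, adjusted p = 0.0904 by edgeR and 0.00244 by DESeq2).

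The other genes of the pathway were a list of 47, grouped by role. In MC against control 40 were tested, 33 had a log2 fold change above 0 (46.9% of all genes) and 7 below, and 0 were called by edgeR. At an unadjusted p under 0.05, 12 were higher and 1 lower (9.2% and 5.46% of all genes). DESeq2 called 6, all higher, against 3.11% of all genes called higher. Il18bp, which encodes the secreted protein that binds and neutralises IL-18, was at 8.32, 14.7 and 16.7 CPM against 4.33, 4.2 and 2.65 CPM (log2 fold change 1.82, standard error 0.31, adjusted p = 0.0831 by edgeR and 5.41e-06 by DESeq2). The ratio of Il18 to Il18bp counts was 0.158 to 0.215 in MC and 0.122 to 0.248 in controls, which overlapped (two-sided exact permutation test, p = 1, where 3 against 3 libraries allow no p below 0.1).

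Among the other roles in MC, Gbp5, an interferon-induced GTPase that promotes inflammasome assembly, had the smallest p of the list. It was at 7.27, 9.64 and 7.46 CPM against 2.64, 2.26 and 2.43 CPM (log2 fold change 1.73, standard error 0.19, adjusted p = 0.0782 by edgeR and 8.14e-11 by DESeq2). The receptor subunit gene Il18rap differed by 1.18 on the log2 scale (standard error 0.28, adjusted p = 0.14 by edgeR and 0.0183 by DESeq2), and the DNA sensor gene Aim2 by 1.53 (standard error 0.44, adjusted p = 0.212 by edgeR and 0.0274 by DESeq2). DESeq2 called both. Casp12 had a log2 fold change of 0.87 (0.32, 0.286 by edgeR) and Gsdmd, the gene of gasdermin D, 0.94 (0.27, 0.204), and DESeq2 called neither. For Gsdmd the adjusted p by DESeq2 was 0.0346, and its log2 fold change there, 0.95, was below the threshold of 1. The signalling genes downstream of the receptors had a median of 0, with Irak3 at 0.37 (0.16, 0.341), and the only other IL-1 family ligand tested, Il1f9, had 0.6 (0.53, 0.584).

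In KMC against KC 40 of the 47 genes were tested, 34 had a log2 fold change above 0 (51.3% of all genes) and 6 below. EdgeR called 0 of them. DESeq2 called 15 higher and 1 lower, against 9.25% and 4.47% of all genes. The 10 tested genes of the other sensors were all higher, with a median of 2.58. Among them Nlrp1b had 1.77 and 3.51 CPM against 0.0681 and 0.271 CPM (log2 fold change 3.81, standard error 0.78, adjusted p = 0.0796 by edgeR and 0.000683 by DESeq2), with 1 and 7 counts in KC. P2rx7, the ATP-gated channel that triggers NLRP3, was at 11 and 25.1 CPM against 1.63 and 2.59 CPM (3.07, standard error 0.51, adjusted p = 0.0796 by edgeR and 4.84e-06 by DESeq2). The IL-36 receptor gene Il1rl2 differed by 2.84 on the log2 scale (standard error 0.63, adjusted p = 0.0818 by edgeR and 0.000527 by DESeq2). Gsdmd had 2.05 (standard error 0.52, adjusted p = 0.0966 by edgeR and 0.00553 by DESeq2) and Casp12 1.75 (standard error 0.39, adjusted p = 0.0825 by edgeR and 0.00766 by DESeq2). Irak4 had 1.22 (standard error 0.4, adjusted p = 0.135 by edgeR and 0.084 by DESeq2). Sigirr, an inhibitory receptor, had -0.77 (0.37, 0.233). Whether the effect of kinase-dead HPK1 differed between the MC and KMC experiments was not tested.

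In the libraries labelled HC, 44 of the 47 genes were tested, and 19 had a log2 fold change above 0 (49.8% of all genes) and 25 below. None were called, against 0.565% of all genes. Genes outside the naming rule were chosen here after their values were seen. Gsdmd was at 88.4, 106 and 96.2 CPM against 62.8 and 57 CPM (log2 fold change 0.69), and Il1f6, the gene of IL-36α, at 0.888 to 2.16 CPM against 0.516 and 0.614 CPM (1.4). Il18bp was lower, at 4.52, 5.28 and 4.98 CPM against 6.8 and 6.12 CPM (log2 fold change -0.39). The ratio of Il18 to its binding protein was 5.04 to 8.28 in the libraries labelled HC and 1.87 and 1.93 in their controls, while in MC and its controls it did not exceed 0.248. Nlrp1b (log2 fold change -0.86), Mefv, the gene of the sensor pyrin (-1.24), P2rx7 (-0.57) and Casp12 (-0.57) lay below both controls in each library labelled HC.

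**Figure D3:**
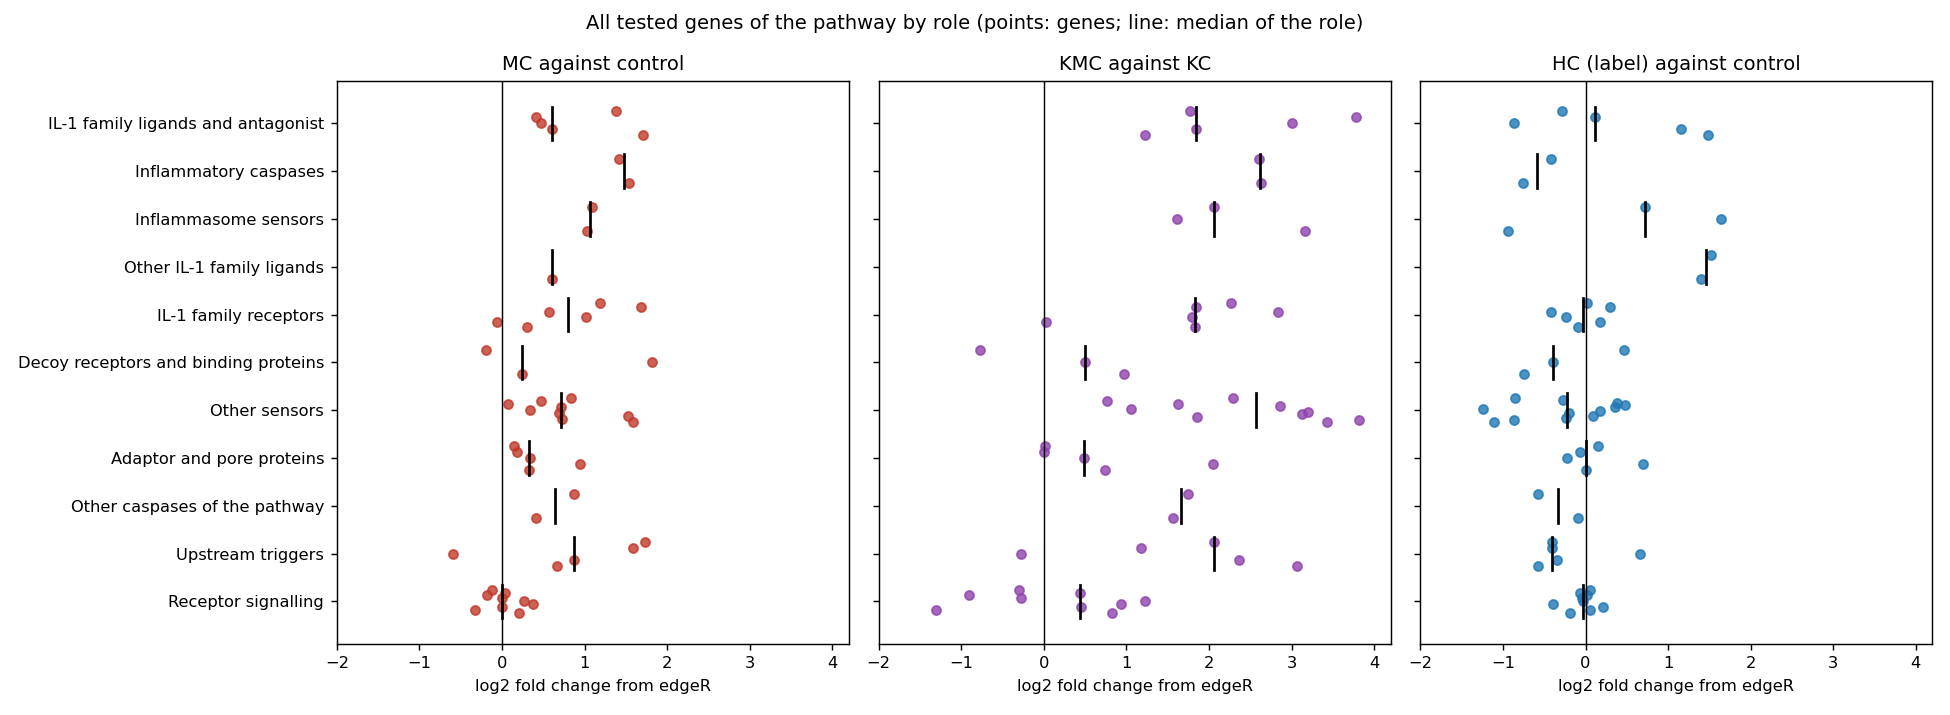
Log2 fold change from edgeR of each tested gene of the pathway, by role, in the 3 comparisons, where points are genes and black lines are the medians of a role. Points lie mostly right of 0 in MC and KMC, with the other sensors at a median of 2.58 in KMC, and on both sides of 0 in the libraries labelled HC.

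Levels in whole tissue cannot tell fewer cells of a type from less RNA per cell. Markers of immune cells were mostly higher in MC and KMC, as were those of the 10 genes that were tested there. In the libraries labelled HC these markers were mostly lower, while 5 of the 10 genes were higher and 5 lower. Of 12 macrophage markers, 11 were tested in MC and 11 were higher (summed level 1150 to 1620 CPM against 559 to 1390 in controls), 12 of 12 were higher in KMC (1030 to 3150 CPM against 326 to 372), and 12 of 12 were lower in the libraries labelled HC (1700 to 2620 CPM against 2720 to 4540). No macrophage marker listed was at 0 in all libraries. T and NK cell markers were higher in MC for 10 of 10 tested (9.87 to 14.5 CPM against 2.29 to 3.72) and in KMC for 11 of 11 (15.4 to 16.7 CPM against 3.68 to 4.3). Of 10 tested in the libraries labelled HC, 9 were lower (23.7 to 72.9 CPM against 49.8 to 89.1). Neutrophil markers, at 24.5 to 42.2 CPM against 1.91 to 7.82 in KMC, were higher there for 11 of 11. In MC they were higher for 5 of 7 (25.8 to 43.7 CPM against 7.41 to 55.3), and their sum overlapped that of controls, as did the macrophage sum. In the libraries labelled HC neutrophil markers were lower for 8 of 9 (82.5 to 92.7 CPM against 109 to 136). Fibroblast markers were higher for 8 of 8 in MC (1940 to 2850 CPM against 981 to 2400) and in KMC (2130 to 6240 CPM against 432 to 892), as was Il33, and lower for 5 of 8 in the libraries labelled HC (4720 to 10000 CPM against 9310 to 10600). Acinar genes were lower for 20 of 22 in MC and 23 of 23 in KMC, with medians of -0.63 and -2.01. The part of these cells in the results was not tested.

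Epithelial markers moved with Il18 and Naip1 in the HC experiment. Of 12 ductal markers 10 were higher in the libraries labelled HC (8480 to 10300 CPM against 7100 to 7480), including Krt19 (1500 to 2150 CPM against 896 to 959) and Muc1 (1050 to 1360 CPM against 527 to 559). Of 9 tested markers of stomach epithelium 8 were higher. Among these 8 were all 4 genes of gastric pit cells (4350 to 6130 CPM against 582 to 1480). That list was added after the data were seen and is a part of the stomach list, so it is not a separate result. Gkn1, which gastric pit cells secrete, was at 2340 to 2890 CPM against 322 and 680 CPM. Islet markers were higher for 8 of 8 (3520 to 5620 CPM against 2960 to 3180), while acinar genes took 5.34 to 8.28% of counts against 6.22 to 8.1%. In MC the ductal sum did not differ beyond its spread, at 2990 to 3930 CPM against 3010 to 4220, and Krt19 was at 148 to 176 CPM against 166 to 268. The part of these cells in the levels of Il18 and Naip1 was not tested.

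**Figure D4:**
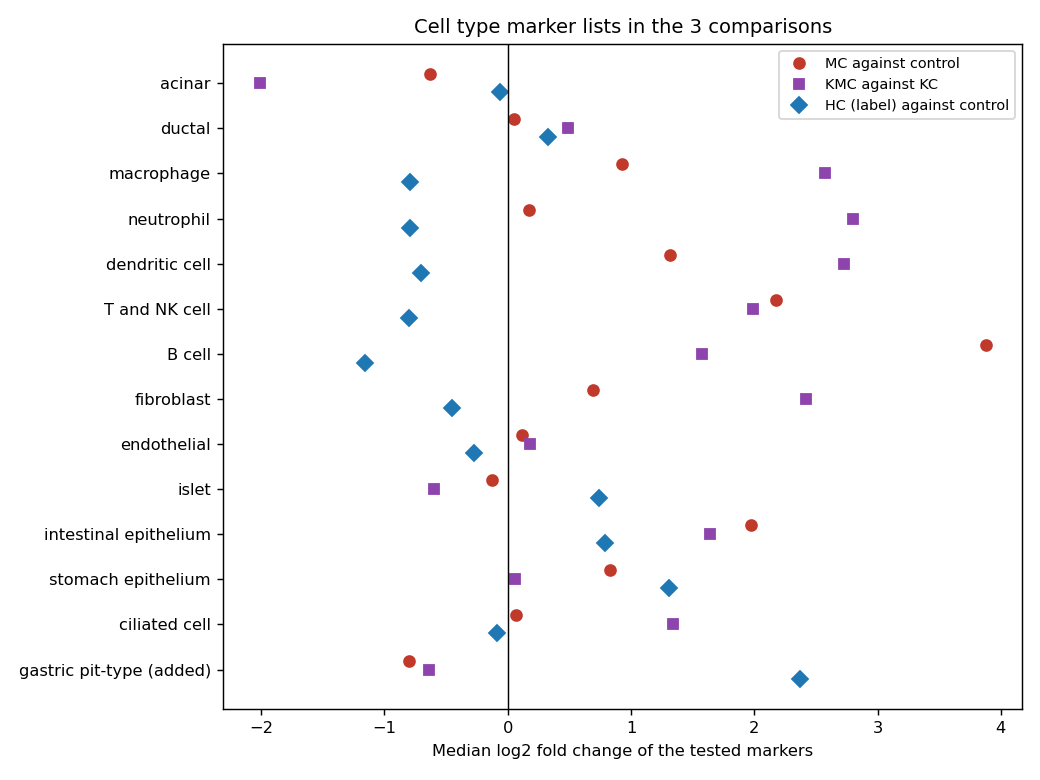
Median log2 fold change of the tested markers of each cell type list in the 3 comparisons. Macrophage markers have medians of 0.93 in MC, 2.57 in KMC and -0.79 in the libraries labelled HC, and stomach epithelium and gastric pit-type lists stand at 1.31 and 2.37 in HC. The gastric pit-type genes are also in the stomach epithelium list.

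Ratios of counts within a library were formed after the values were seen, to describe the genes against Ptprc, which encodes the leukocyte antigen CD45, and against Krt19, a ductal keratin. Ptprc was at 38.3 to 52.4 CPM in MC against 8.4 to 19.8 in controls, at 33.4 and 58.6 CPM in KMC against 3.13 and 10.1 in KC, and at 35.1 to 62.6 CPM in the libraries labelled HC against 72.6 and 116 in controls. Casp1 differed in the same direction as Ptprc in each comparison. The ratio of Casp1 to Ptprc was 0.131 ± 0.00993 in MC (SD, n = 3) against 0.138 ± 0.0084 in their controls (SD, n = 3) (two-sided exact permutation test, p = 0.5), and it lay between 0.0888 and 0.174 in all 15 libraries. It was 0.0986 to 0.116 in the libraries labelled HC against 0.0888 and 0.097 in controls, without overlap, where the level of Casp1 itself was below both controls. Relative to the macrophage marker Adgre1, Casp1 was at 0.0697 to 0.101 in MC against 0.0393 to 0.0717 in controls, which overlapped. That ratio was 0.0947 and 0.102 in KMC against 0.0537 and 0.0923 in KC. In the libraries labelled HC it was 0.107 to 0.119 against 0.0903 and 0.106 in controls, again without overlap. Nlrp3 relative to Ptprc was 0.0609 to 0.0879 in the libraries labelled HC and 0.0709 and 0.0755 in their controls, which overlapped.

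Il18 followed Ptprc in the MC experiment but not in the others. Its ratio to Ptprc was 0.0467 to 0.0568 in MC and 0.0395 to 0.0588 in controls (two-sided exact permutation test, p = 0.8), but 0.513 to 1.25 in the libraries labelled HC against 0.109 and 0.163 in their controls. In KMC it was 0.0338 and 0.0343 against 0.0846 and 0.152 in KC, without overlap (p = 0.333, the smallest the exact permutation test allows there). Its ratio to Krt19 was 0.0116 to 0.0157 in MC against 0.00197 to 0.00452 in controls, without overlap (p = 0.1, the smallest the exact permutation test allows). In the libraries labelled HC this ratio was 0.0141, 0.0203 and 0.0226 against 0.0132 in both controls. Nlrc4 was lower relative to Ptprc in MC (0.0317 to 0.0361) than in controls (0.037 to 0.0695), as was Il1b (0.0283 to 0.082 against 0.111 to 0.139), both without overlap and both at the smallest exact permutation p of 0.1. For the 19 ratios formed, the lowest Benjamini-Hochberg adjusted p of the exact permutation test was 0.475 in MC and 0.703 in KMC, where 2 against 2 libraries allow no p below 0.333.

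**Figure D5:**
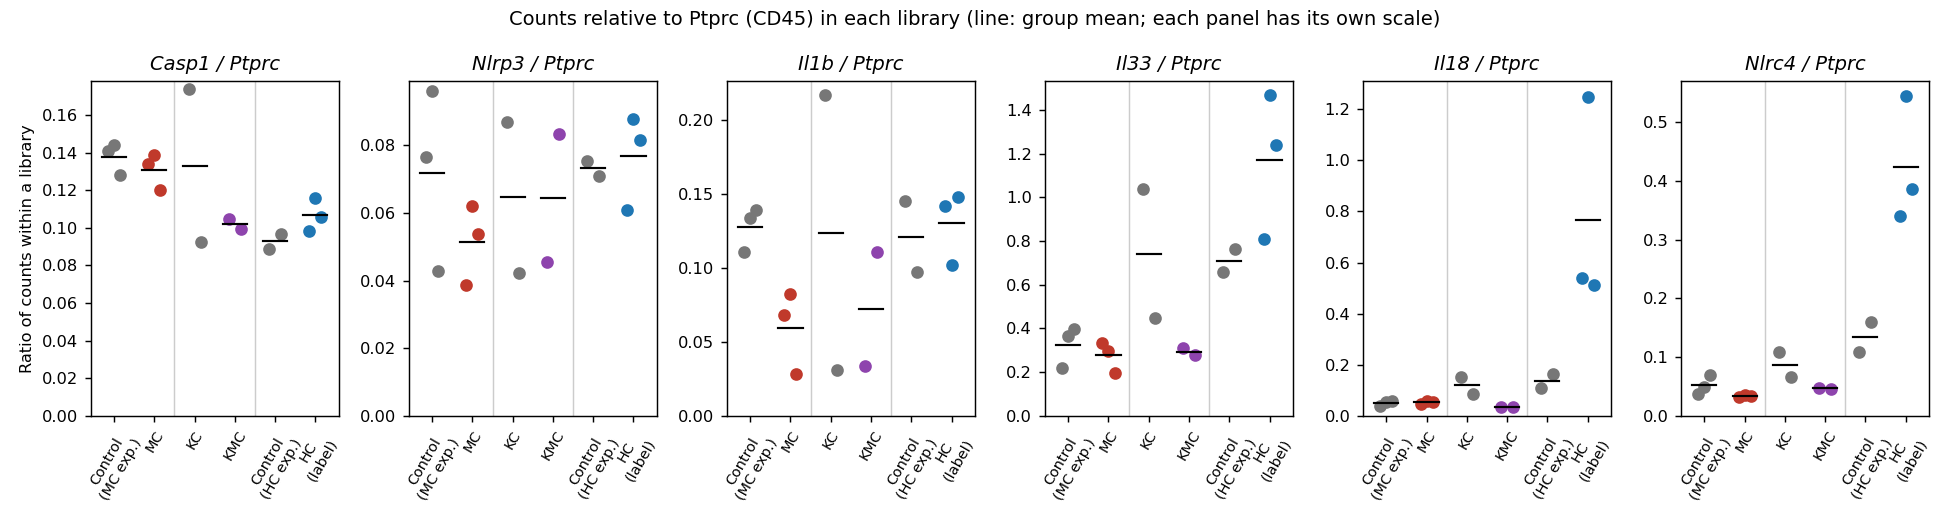
Ratio of counts of Casp1, Nlrp3, Il1b, Il33, Il18 and Nlrc4 to those of Ptprc in each library, with group means as lines and a scale of its own starting at 0 in each panel. Casp1 stays between 0.0888 and 0.174 in all libraries, while Il18 reaches 0.513 to 1.25 in the libraries labelled HC.

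Across the 15 libraries, with each log2 CPM taken relative to the mean of its table, the genes whose pattern was most like each of the 10 were named among 12063 genes. These correlations describe libraries that share groups and tables and carry no test. Casp1 was most like Irf8, Ikzf1 and Ptprc (Pearson r = 0.99 each), genes of immune cells, and Nlrp3 was most like Spi1, Ikbke and Lrrc25 (0.99 each). Il1rn was most like Cxcl16, Iqgap1 and Pak1 (0.98 each), Casp4 like Arhgef3 (0.99), Slc2a6 and Fkbp7 (0.98 each), and Il33 like Palm (0.97), Cd38 and Timp2 (0.96 each). Il1b was most like Fgd5 and Tbx3 (0.96 each) and Cnn3 (0.95).

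The genes that were higher in the libraries labelled HC had other partners. The HC values that chose the genes enter all these correlations, so nothing is read from the differences in partners or in r. Il18 was most like Ermp1 (0.93), 9130008F23Rik and Cpd (0.91 each), and Naip1 like Mst1r (0.94), Cd5l and Ly6d (0.91 each). Nlrc4 was most like Ms4a8a (0.98), Gsdmd and Frmd4b (0.97 each), so that Gsdmd, the pore gene of the same pathway, came second among all genes compared. Il1a had the weakest closest partners, Pmvk, As3mt and Trp53i11 (0.87 each). Outside the HC experiment Il1a did not exceed 0.905 CPM and Naip1 did not exceed 0.947 CPM, so their correlations rest in part on low counts. Within the 10 genes, r was 0.95 for Casp1 with Nlrp3, 0.94 for Casp1 with Casp4 and 0.94 for Casp1 with Il33. It was 0.88 for Il18 with Nlrc4 and 0.78 for Il18 with Naip1, but 0.29 for Il18 with Il1b.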

How the data were processed

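RNA-Seq libraries from mouse pancreas were grouped by the labels. Per the labels RNA was isolated with Trizol from 3 pooled mice, and libraries were made with standard Illumina protocols for MC and its controls and with a KAPA stranded kit for the others, whereas the study's text gives RNeasy columns and TruSeq stranded libraries. The submitters' processing notes list bcl2fastq 2.17.14, STAR 2.6.1a, HTSeq 0.6.1, DESeq2 and GRCm38. The authors deposited raw counts per gene in 3 tables without normalization. A further table with the authors' fold changes and p-values for MC against control was not used. The choice of genes listed in the MC table is not given in the sources used here.

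Within each pair of groups, counts were filtered with filterByExpr, scaled by TMM and tested in R 4.3.3 by glmQLFit and glmQLFTest of edgeR 4.0.16, and p-values were adjusted over all genes tested by Benjamini-Hochberg. Calls needed an adjusted p of 0.05 or less and a log2 fold change of 1 or more in either direction, the thresholds of the study's methods. Dividing the log2 fold change by the root of the F statistic gave its standard error. The main edgeR fit and DESeq2 were also run on simulated counts with known changes, and the other steps were not. Alternatives were DESeq2 1.42.0, its size factors, library size alone or without acinar genes, other filters, a replicate block, one fit of the KMC and HC tables, and fits without each library in turn. The current default of glmQLFit (legacy off) was tried as well, chosen after seeing the data. Levels are CPM scaled by TMM, divided by the length of merged exons where given per kb, and likeness used log2 CPM with a prior count of 2 and genes with a mean of at least 1 CPM in each table.

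The genes and gene lists were chosen with earlier results of these data known. The text names all 10 genes, other pathway genes that were called or had the smallest unadjusted p of their role in MC or KMC, and the 3 genes most like each of the 10. Others are marked. Samples were not treated as paired by replicate number in the fit reported, and p-values measure the spread between pooled libraries. Limits that a count of 0 allows cover counting error only. An allele that KC and KMC mice share is not reported here.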

Additional observations from a re-analysis of the deposited data

How the results depend on the processing

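The calls depended on the test and the scaling far more than the directions did. Of 393 log2 fold changes of the 10 genes under alternatives, 329 kept their direction and side of the threshold, 57 passed it in addition, 5 no longer passed it and 2 changed sign, both of Il1rn (-0.21 in MC without MC library 3, and -0.13 in HC without control library 2, with ranges over the left-out libraries up to 1.21 and 0.41). In MC, 0 of the 10 genes and 0 of the other pathway genes were called in the fit reported, against 4 and 6 by DESeq2. Leaving out 1 library gave 0 to 4 and 0 to 9 calls, the highest without control library 2. Without MC library 1, 3 pathway genes were called (171 of 14132 genes in all). In KMC, where 0 and 0 were called, DESeq2 called 6 and 16 (2159 of 15733 genes in all). A single fit with the HC libraries called 7 and 19 (3230 of 18681). Library size alone gave 10 and 28 (4714 of 15733), and library size without acinar genes 7 and 18 (2056 of 15733). Leaving out 1 library gave 0 to 6 and 0 to 17, the highest without KMC library 1. In HC, where 1 of the 10 was called, DESeq2 called 3 (467 of 18407 genes in all). A single fit with the KC and KMC libraries called 0 (1 of 18681), and no filter gave 2 (395 of 31252). Leaving out 1 HC library gave 0 to 2, the highest without HC library 1 (379 of 18143). The other pathway genes in HC stayed at 0 calls under the alternatives run. Among all genes 0 were called in MC (453 by DESeq2, 718 without control library 2), 3 in KMC (2159 by DESeq2, 2312 without KMC library 1, and 4694 higher and 20 lower with library size alone, against 1 higher and 2 lower) and 104 in HC (467 by DESeq2, 0 without HC library 2 or either control). The cause was not tested. Deviations of libraries of one number had correlations of 0.0665, 0.296 and -0.297 in MC, 0.0514 in KMC, and 0.189 and 0.17 in HC. With 2 libraries a group the KMC value is the same for both pairs by construction. So few values cannot show whether libraries of one number were paired. With the replicate number as a block, the calls were 7 of the 10 genes and 17 pathway genes in KMC (2464 of 15733 genes in all), 3 of the 10 in HC (339 of 18407) and 0 in MC, where the 3 pairs gave 0 pathway genes as well. Depth limits Naip1 and Il1a outside the HC experiment, with at most 76 counts in a library, and Naip1 in MC had no value to compare alternatives with.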

Other observations

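Other members of the IL-1 family had few counts. Il1f6 had 3 counts over both KMC libraries and 0 counts over both KC libraries, whereas it had 145 counts over the 3 libraries labelled HC and 42 over their controls. Il1f9 had 23 counts over both KMC libraries against 2 in KC, 70 counts in MC against 35 in controls, and 65 counts in the libraries labelled HC against 17 in controls. Txnip, which encodes a protein that binds NLRP3 under oxidative stress, was the most abundant of the upstream genes. Txnip is outside the naming rule and was chosen after its values were seen. It was at 1000 to 1290 CPM in the libraries labelled HC against 630 and 820 CPM in controls, without overlap, as for 17.5% of all genes. In MC it was at 196 to 326 CPM against 338 to 422 CPM in controls, in the opposite order and without overlap (log2 fold change -0.59, adjusted p = 0.277 by edgeR). In KMC it was at 214 and 140 CPM against 132 and 296 CPM in KC, which overlapped.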
